A study of Mus musculus with 6 samples.

Results

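The genes described here are 42 mitosis and spindle genes, followed in thymus RNA of 2 groups of adult female F1 mice. One group was (AKR/J x FVB/NJ)F1, called the AKR cross, and the other was (DBA/2J x FVB/NJ)F1, called the DBA cross, with 3 Affymetrix arrays each. Both crosses carry 1 set of FVB/NJ chromosomes, and the labels give no treatment other than anaesthesia before tissue collection. The whole organ was frozen, so each value averages all its cell types, and fewer cells of a type and less RNA per cell cannot be told apart. The genes were taken by name from a list, and each was represented by the probe set with 1 gene symbol that had the highest mean over the 6 arrays. Of the 42 genes, 41 had such a probe set, and all 41 lay above the 40th percentile of every array. They are 41 of 12855 genes tested. Ccnb1, the gene of cyclin B1, is the member not analysed here. All 12 markers of thymus identity, among them Rag1, Ptcra, Cd4, Cd8a and the epithelial gene Foxn1, were above the filter on dim probe sets. Whether each array had an animal of its own is not in the labels, and the p-values cover only how far these samples spread, which may be a technical matter.

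Mitosis starts when the kinase CDK1, bound to A- and B-type cyclins, is switched on, helped by the phosphatase CDC25C and the kinases PLK1 and Aurora A. Chromosomes then attach to the spindle through kinetochores, under the watch of a checkpoint, until CDC20 and the anaphase-promoting complex release separase to part the chromatids, and a contractile ring divides the cell. In the thymus, the dividing cells are mainly T cell precursors that expand before and after they assemble the T cell receptor beta chain, while most double-positive thymocytes rest. Many of these genes are transcribed late in the cell cycle, through promoters that carry CCAAT boxes, bound by the factor NF-Y, and a cell cycle homology region, bound by the MuvB complexes together with repressive p130 and E2F4 or with activating B-MYB and FOXM1.

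The letters of such elements were common in the group, both in genes that differed between the crosses and in those that did not pass the test. Of the 42 genes, 36 had a promoter in the RefSeq table, all but Tpx2, Incenp, Ccna2, Aurkb, Cdc25c and Kif20a (build GRCm38.p6, the C57BL/6J reference and neither parent of these crosses), a window of 250 bases before to 50 after the start. The letters TTTGAA, the core of the cell cycle homology region, were found on either strand in 26 of 36 (72.2%), against 17.9% of all 32851 windows. In the last 50 bases before and the first 50 after the start the shares were 66.7% and 4.94%. The letters CCAAT, on either strand, were in 27 of 36 windows, against 37.4% of all windows. Variants of either motif were not searched, and neighbouring matches may share letters. TTTGAA was present in 8 of 10 windows of genes called higher in the AKR cross and in 18 of 25 windows of genes that were not called. For CCAAT the counts were 7 of 10 and 19 of 25. Whether called and other genes differ in either motif was not tested. A match is a description of the letters and not a site shown to be bound.

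The 120 bases before the start are printed for 6 of the genes with TTTGAA there, to set called genes beside genes that were not called. Cdc20 (chr4:118437344-118437463, minus strand), Cdk1 (chr10:69352913-69353032, minus strand) and Espl1 (chr15:102296173-102296292, plus strand) were called higher in the AKR cross. Kif11 (chr19:37376262-37376381, plus strand), Top2a (chr11:99024190-99024309, minus strand) and Ube2c (chr2:164769809-164769928, plus strand) were not called. Each is written 5′ to 3′ on the strand of its gene, with both motifs and their reverse complements in capitals.
Cdc20: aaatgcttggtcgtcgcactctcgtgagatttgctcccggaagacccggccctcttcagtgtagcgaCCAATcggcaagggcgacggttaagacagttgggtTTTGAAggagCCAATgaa
Cdk1: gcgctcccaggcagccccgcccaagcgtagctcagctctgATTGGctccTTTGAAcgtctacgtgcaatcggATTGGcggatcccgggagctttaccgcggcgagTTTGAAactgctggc
Espl1: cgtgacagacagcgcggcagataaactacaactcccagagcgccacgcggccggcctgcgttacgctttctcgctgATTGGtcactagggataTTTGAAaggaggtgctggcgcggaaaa
Kif11: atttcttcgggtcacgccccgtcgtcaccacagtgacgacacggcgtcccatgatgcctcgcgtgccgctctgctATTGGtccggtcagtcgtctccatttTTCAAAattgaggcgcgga
Top2a: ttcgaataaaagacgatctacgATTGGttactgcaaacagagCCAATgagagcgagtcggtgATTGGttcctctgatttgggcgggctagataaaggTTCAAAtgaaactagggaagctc
Ube2c: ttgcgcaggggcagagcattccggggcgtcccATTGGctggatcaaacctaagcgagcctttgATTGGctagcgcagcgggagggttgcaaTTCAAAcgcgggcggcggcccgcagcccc
In all 6 a TTTGAA or its reverse complement begins between 15 and 29 bases before the start, at 18 bases in Cdc20, 15 in Cdk1, 27 in Espl1, 19 in Kif11, 23 in Top2a and 29 in Ube2c. At least 1 CCAAT lies further upstream in each of them. The 6 were picked from a larger set, and the position is not common to that set. Of those not printed, Kif22 has the motif at 17 bases. Kif2c, which was called, has it at 103, Ect2 at 114 and Mki67 at 116 and 98. Plk1, the member with the largest difference, has TTTGAA 31 bases after its start and CCAAT 14 bases before it.

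The comparison of the crosses asks which genes differ in basal thymus expression between the genotypes. Of the 41 genes, 12 were called higher in the AKR cross on their brightest probe set, none was called lower and 29 did not pass. One of the 12, Pttg1, has another probe set called in the opposite direction, and without it the count was 11. A gene was called at an adjusted p under 0.05 by limma, with Benjamini-Hochberg adjustment over all genes. Over all genes tested 24.0% were called, 12.5% with the higher level in the AKR cross and 11.5% in the opposite direction. Leaving out genes whose probe sets were called both ways, 12.1% of all genes were called higher in the AKR cross. At an unadjusted p under 0.05, 18 members were higher in the AKR cross and 2 lower, where 20.5% and 17.3% of all genes were. The 3 AKR arrays lay above the 3 DBA arrays for 18 members, where 24.5% of all genes did so, and below them for 2, where 19.4% of all genes did so. For 43.9% of all genes the groups did not overlap in either direction. Differences are log2 values, the mean of the AKR arrays less that of the DBA arrays, with their standard error (SE). They ran from -0.25 to 0.55, with a median of 0.11 against 0.03 over all genes tested. The called genes were spread over the kinases and cyclins of entry, the passenger complex, the centromere and kinetochore, the spindle motors (Kif2c alone), the anaphase machinery and cytokinesis, while no gene of the spindle checkpoint and neither chromosome structure gene passed.

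**Figure D1:**
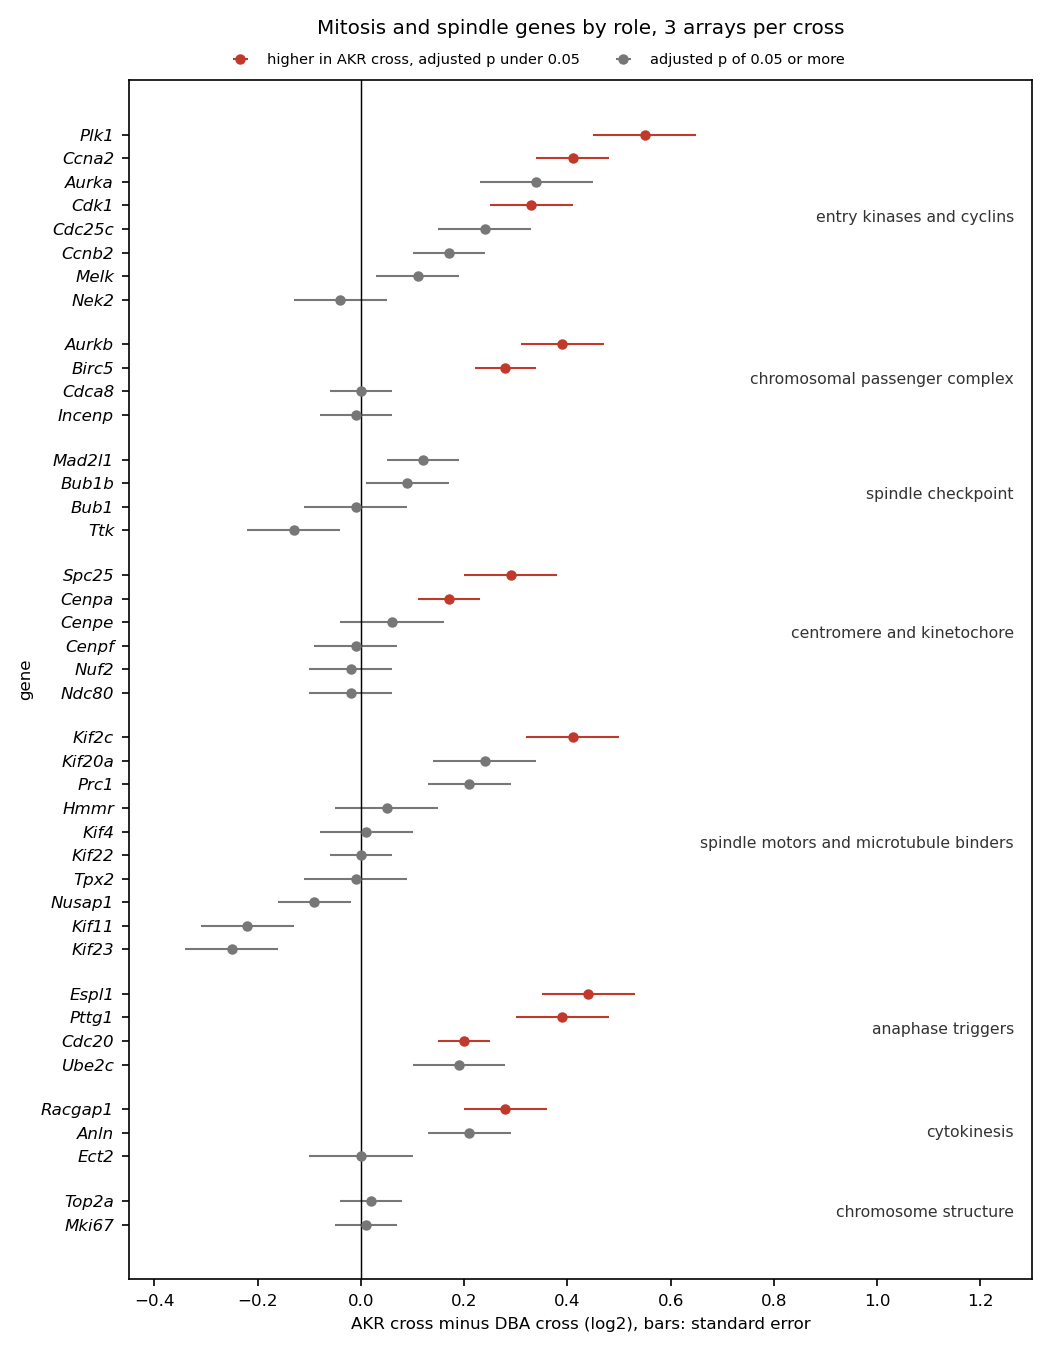
AKR minus DBA log2 difference of 41 mitosis and spindle genes, grouped by role, with standard errors as bars and called genes in red. The 12 red points lie between 0.17 and 0.55, and the 2 lowest points are Kif11 and Kif23.

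Of 8 genes of the kinases and cyclins that drive entry, 3 were called, all higher in the AKR cross. Plk1, the Polo-like kinase of spindle assembly and cytokinesis, read 9.36, 9.75 and 9.45 in the AKR cross against 9.02, 8.95 and 8.93 in the DBA cross (log2 values, replicates 1 to 3). The groups did not overlap, and the AKR replicate 2 array was the highest. The difference of 0.55 ± 0.10 (SE), or 1.47-fold, had an adjusted p = 0.00597 (limma). Ccna2, the cyclin of S phase and early mitosis, read 11.04, 11.18 and 11.02 in the AKR cross against 10.70, 10.75 and 10.56 in the DBA cross. It was 1.33-fold higher in the AKR cross (0.41 ± 0.07, adjusted p = 0.00392, limma), but its other probe set, at 0.10 ± 0.07, was not called. Cdk1, the mitotic kinase itself, read 10.21, 10.30 and 10.16 against 9.92, 10.01 and 9.77. It was 1.25-fold higher in the AKR cross (0.33 ± 0.08, adjusted p = 0.0169, limma), with no overlap between the groups. Without AKR replicate 2 its adjusted p was 0.0583.

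The other entry genes did not pass. Aurka, the Aurora A kinase of centrosomes, read 9.42, 9.50 and 9.24 against 9.11, 9.20 and 8.82, without overlap, and had an adjusted p = 0.0508 (limma). Cdc25c (0.24 ± 0.09), the phosphatase that switches CDK1 on, and Ccnb2 (0.17 ± 0.07), cyclin B2, also had every AKR array above every DBA array, as did Melk (0.11 ± 0.08), a kinase of dividing cells. For Nek2, a kinase of centrosome separation, the groups overlapped (-0.04 ± 0.09).

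The chromosomal passenger complex split by subunit. Aurkb, its Aurora B kinase, read 8.91 on its lowest and 9.12 on its highest AKR array, against 8.62, 8.63 and 8.63 in the DBA cross. It was 1.31-fold higher in the AKR cross (0.39 ± 0.08, adjusted p = 0.00865, limma). Its other probe set was not called (0.21 ± 0.09). Birc5, the survivin subunit, read 10.47, 10.65 and 10.59 against 10.29, 10.29 and 10.28, and was 1.21-fold higher in the AKR cross (0.28 ± 0.06, adjusted p = 0.0126, limma). The DBA arrays lay within 0.01 of each other for both genes. For the scaffold Incenp (-0.01 ± 0.07) and for Cdca8, the borealin subunit (0.00 ± 0.06), the brightest probe sets did not differ beyond their error. A dimmer Incenp probe set read 7.48, 7.78 and 7.78 against 7.21 on each DBA array and was called higher in the AKR cross (0.47 ± 0.10). Both other Cdca8 probe sets had positive differences that were not called (0.17 ± 0.08 and 0.24 ± 0.10).

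Of 4 genes that trigger anaphase, 3 were called on their brightest probe set, and 2, Espl1 and Cdc20, without Pttg1, whose probe sets were called both ways. Espl1, which encodes separase, the protease that cuts cohesin, read 8.75, 9.08 and 8.97 in the AKR cross against 8.53, 8.47 and 8.47 in the DBA cross. It was 1.36-fold higher in the AKR cross (0.44 ± 0.09, adjusted p = 0.0108, limma) and is measured by 1 tested probe set. Cdc20, the activator of the anaphase-promoting complex, read 11.27, 11.29 and 11.25 against 11.04, 11.14 and 11.03. Its difference was small but steady over the arrays, at 0.20 ± 0.05 (adjusted p = 0.0233, limma). Its 2 other probe sets differed by 0.31 ± 0.07, which was called, and by 0.21 ± 0.09, which was not. Leaving out any 1 array other than DBA replicate 2 ended the Cdc20 call, with adjusted p-values from 0.0521 to 0.0705 (limma). Ube2c, the ubiquitin-conjugating enzyme of the same complex, read 11.31, 11.52 and 11.30 against 11.24, 11.32 and 10.98, with overlap, and did not pass (0.19 ± 0.09).

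Pttg1, which encodes securin, the inhibitor of separase, gave opposite answers on its probe sets. The brightest read 11.56, 11.72 and 11.58 in the AKR cross against 11.03, 11.26 and 11.40 in the DBA cross, and was called higher in the AKR cross (0.39 ± 0.09, adjusted p = 0.0139, limma). The second read 9.66, 9.80 and 9.71 against 9.94, 10.15 and 10.12, and was called higher in the DBA cross (-0.35 ± 0.08). The dimmest was not called (-0.33 ± 0.16), so no direction is given for Pttg1 RNA. Without AKR replicate 2 the call of the brightest probe set was also lost (adjusted p = 0.0519, limma).

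**Figure D2:**
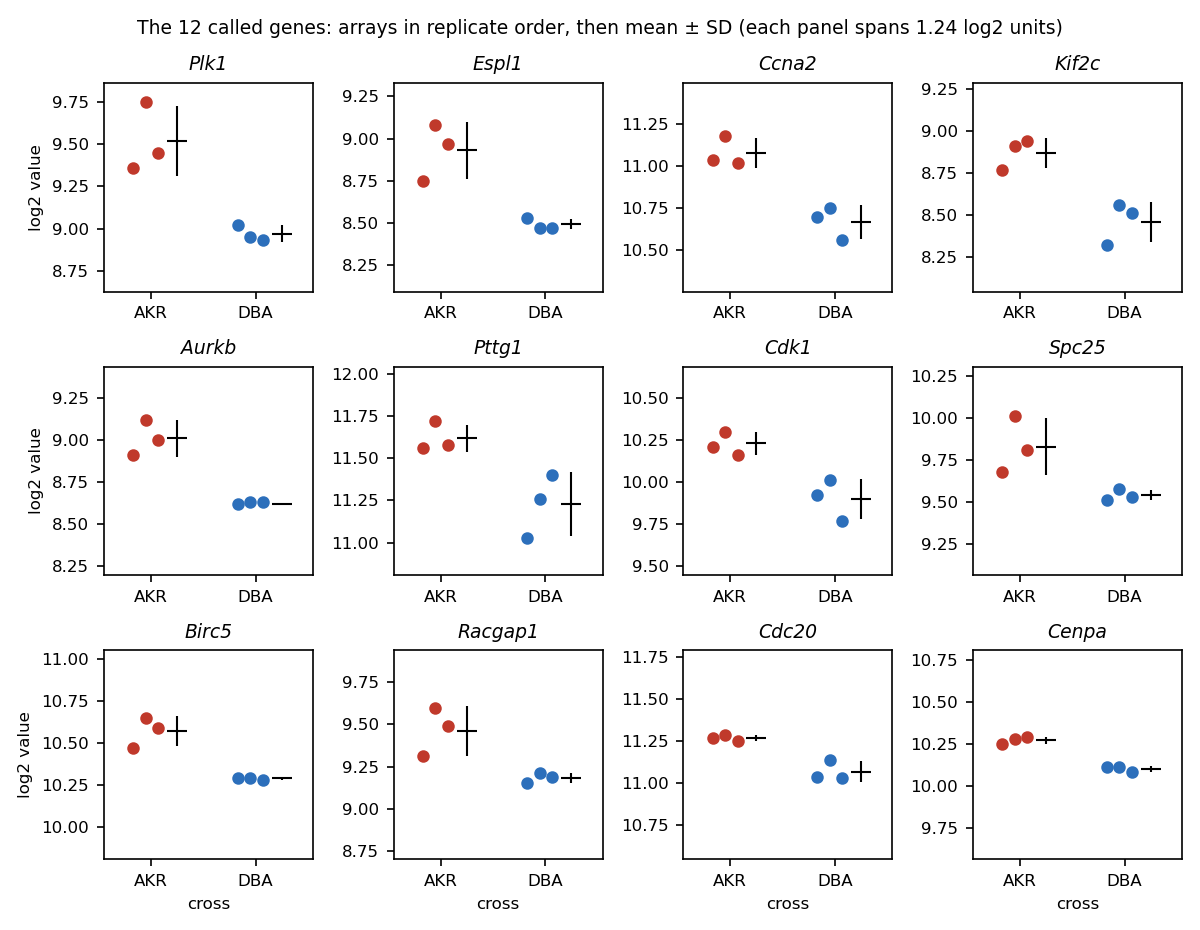
Log2 values of the 12 called genes on each array, in replicate order within each cross (AKR red, DBA blue), with the mean ± SD in black and 1 scale length for all panels. The AKR arrays lie above the DBA arrays in each panel, and AKR replicate 2 is the highest array of its cross in all but Kif2c and Cenpa.

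Of 6 centromere and kinetochore genes, 2 were called and 4 stayed near 0. Spc25, a subunit of the NDC80 complex that holds microtubules, read 9.68, 10.01 and 9.81 against 9.51, 9.58 and 9.53 (0.29 ± 0.09, adjusted p = 0.0406, limma). The other subunits of that complex on the list, Ndc80 (-0.02 ± 0.08) and Nuf2 (-0.02 ± 0.08), overlapped between the crosses. Cenpa, the histone variant of centromeres, read 10.25, 10.28 and 10.29 against 10.11, 10.11 and 10.08 (0.17 ± 0.06, adjusted p = 0.0487, limma). Both calls sat close to the threshold. That of Cenpa was lost when any 1 array was left out, and that of Spc25 when any but AKR replicate 1 was. A second Cenpa probe set had the other sign without a call (-0.45 ± 0.18). The second Spc25 probe set, also not called, differed by 0.02 ± 0.16.

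Cenpe, a kinetochore motor, and Cenpf, a large kinetochore protein, overlapped between the crosses on their brightest probe sets (0.06 ± 0.10 and -0.01 ± 0.08). Each also had a dim probe set with a difference far larger than any other of the group. That of Cenpe read 5.43, 5.18 and 5.55 in the AKR cross against 6.88, 7.08 and 7.11 in the DBA cross, a difference of -1.64 ± 0.12 (adjusted p = 3.64e-05 over all probe sets, limma). That of Cenpf read 4.84, 4.73 and 5.11 against 6.14, 6.43 and 6.31, a difference of -1.40 ± 0.13, and was also called. The 3 AKR values of Cenpf and 1 of Cenpe were under their array's 40th percentile, so these sizes are not exact. The Cenpf probe set passed the filter through the DBA arrays alone, so its call is not taken as support for a difference. No other probe set of either gene was called.

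The spindle checkpoint genes gave no call in limma, and at an unadjusted p under 0.05 none of the 4 stood out either. Mad2l1, the inhibitor of CDC20, differed by 0.12 ± 0.07, and Bub1b, its partner BUBR1, by 0.09 ± 0.08. Bub1, a kinase at kinetochores, read 9.80, 10.20 and 9.99 against 9.92, 10.03 and 10.07. The spread among AKR arrays was thus larger than the difference (-0.01 ± 0.10). Ttk, the kinase MPS1 that starts the signal, differed by -0.13 ± 0.09.

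Motor and microtubule-binding genes went both ways, and 1 of 10 was called. Kif2c, which encodes a kinesin that takes microtubules apart at centromeres, read 8.77, 8.91 and 8.94 in the AKR cross against 8.32, 8.56 and 8.51 in the DBA cross. It was 1.33-fold higher in the AKR cross (0.41 ± 0.09, adjusted p = 0.0118, limma), and its 2 other probe sets had the same sign without a call (0.22 ± 0.09 and 0.17 ± 0.09). Kif20a (0.24 ± 0.10), a kinesin of the central spindle, and Prc1 (0.21 ± 0.08), which bundles antiparallel microtubules there, were also positive without passing. Kif4 (0.01 ± 0.09), Kif22 (0.00 ± 0.06), Tpx2 (-0.01 ± 0.10), the activator of Aurora A, and Hmmr (0.05 ± 0.10), a spindle-pole protein, lay near 0.

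Kif23 and Kif11 were the members with the lowest values. Kif23, the kinesin of the centralspindlin complex, read 9.09, 9.36 and 9.25 in the AKR cross against 9.46, 9.59 and 9.41 in the DBA cross, without overlap (-0.25 ± 0.09, adjusted p = 0.0627, limma). Its dimmer probe set read 6.16, 6.53 and 6.68 against 6.88, 6.87 and 6.83, and was called higher in the DBA cross (-0.40 ± 0.13). Kif11, the Eg5 motor that pushes spindle poles apart, read 9.09, 9.44 and 9.25 against 9.45, 9.48 and 9.52 (-0.22 ± 0.09, adjusted p = 0.108, limma). Its second probe set read 8.88, 9.08 and 8.96 against 9.33, 9.32 and 9.21 and was called higher in the DBA cross (-0.31 ± 0.08), while the dimmest was not called (0.12 ± 0.07). Without AKR replicate 2 both genes were called higher in the DBA cross on their brightest probe sets, Kif23 at -0.32 (adjusted p = 0.0487, limma) and Kif11 at -0.31 (adjusted p = 0.0362, limma). Nusap1, which binds spindle microtubules near chromosomes, differed by -0.09 ± 0.07 on a bright probe set. Its other probe set read 5.60, 5.44 and 5.45 against 5.10, 5.06 and 5.02 and was called higher in the AKR cross (0.44 ± 0.10), with the 3 DBA values under their array's 40th percentile. That dim probe set passed the filter through the AKR arrays alone, so its call is not taken as support for a difference.

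Of the cytokinesis genes, Racgap1 passed. It encodes the partner of KIF23 in centralspindlin, and read 9.31, 9.60 and 9.49 in the AKR cross against 9.15, 9.21 and 9.19 in the DBA cross (0.28 ± 0.08, adjusted p = 0.0389, limma). The other Racgap1 probe set differed by -0.07 ± 0.10, and the call was lost without any array except AKR replicate 1. Anln (0.21 ± 0.08), the anillin of the contractile ring, had every AKR array above every DBA array on its brightest probe set, without passing. Its dimmer probe set had the other sign without a call (-0.38 ± 0.14). Ect2 (0.00 ± 0.10), the activator of RhoA at the cleavage site, overlapped.

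Mki67 and Top2a, common markers of proliferation, did not differ beyond their error on their brightest probe sets. Other genes of dividing cells, such as Cdk1 and Birc5 above and Pcna below, were called higher in the AKR cross. Mki67, the Ki-67 antigen that coats mitotic chromosomes, read 11.88, 12.07 and 11.92 in the AKR cross against 11.94, 11.94 and 11.95 in the DBA cross (0.01 ± 0.06). Top2a, the topoisomerase that untangles chromatids, read 11.96, 12.20 and 12.04 against 12.04, 12.05 and 12.06 (0.02 ± 0.06). In both, the DBA arrays agreed within 0.02 and fell inside the AKR range. Top2a has a dimmer probe set that read 9.42, 9.35 and 9.13 against 8.98, 8.89 and 8.89 and was called higher in the AKR cross (0.38 ± 0.09).

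**Figure D3:**
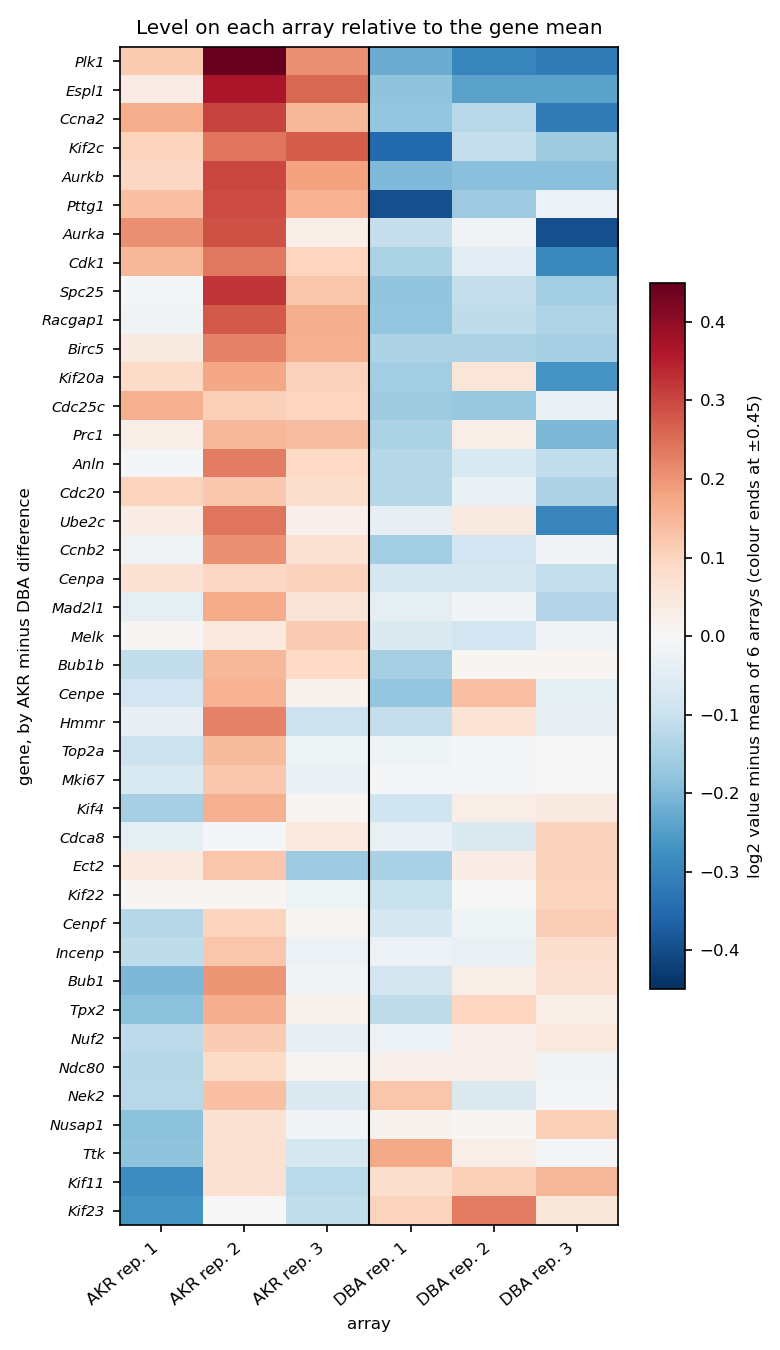
Log2 value of each of 41 genes on each array minus its mean over the 6 arrays, with genes ordered by AKR minus DBA difference (red above the mean, blue below). The AKR replicate 2 column is the reddest of its cross, also for genes near the middle of the order such as Top2a and Mki67.

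The members moved together between arrays of 1 cross. AKR replicate 2 was the highest AKR array for 35 of 41 members, where it was the highest for 29.6% of all genes. AKR replicate 1 was the lowest for 32 of 41, against 29.7% of all genes. The mean log2 value of the 41 genes was 9.68, 9.88 and 9.76 in the AKR cross against 9.61, 9.68 and 9.64 in the DBA cross. The lowest AKR array thus lay level with the highest DBA array. The median SD over the 3 arrays was 0.12 for members in the AKR cross against 0.08 in the DBA cross, where all genes had 0.10 in both. Without AKR replicate 2, 6 members were called higher in the AKR cross (Plk1, Ccna2, Aurkb, Espl1, Kif2c and Birc5) and 2 lower (Kif11 and Kif23). Over all genes 7.86% were then called higher in the AKR cross. Without any other single array, 8 to 10 members were called higher in the AKR cross and none in the DBA cross. In those fits 7.10% to 11.2% of all genes were called higher in the AKR cross.

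Other values moved with that array. The mean over 11 double-positive thymocyte markers was 11.53, 11.42 and 11.55 in the AKR cross against 11.44, 11.51 and 11.48 in the DBA cross. AKR replicate 2 was thus the lowest. It was also the lowest AKR array for 40.1% of all genes, against 29.7% and 30.2% for AKR replicates 1 and 3. Of these 11 markers none was called higher in the AKR cross and 1 lower, and their summed log2 values ran from 125.6 to 127.1 in the AKR cross against 125.9 to 126.6 in the DBA cross. Among 13 markers of early dividing thymocytes, 2 were higher in the AKR cross and 1 lower, with sums of 95.86 to 97.36 and 96.51 to 96.81. The shares of all genes tested were 12.5% called higher in the AKR cross and 11.5% lower. RNA quality differed little, with log2 differences of the 3′ minus the 5′ control probe sets from -0.30 to -0.23 in the AKR cross and from -0.27 to -0.21 in the DBA cross for Gapdh. For Actb they ran from 0.28 to 0.37 and from 0.34 to 0.39.

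B cells also divide, in germinal centres. Of 13 B cell and germinal centre markers, 5 were called higher in the AKR cross and 1 lower, and their summed log2 values were 94.35 to 95.05 in the AKR cross against 90.19 to 91.27 in the DBA cross. For this and the marker lists that follow, the shares of all genes tested were 12.5% called higher in the AKR cross and 11.5% lower. Cr2 (0.93 ± 0.11), a complement receptor gene, and Cd79a (0.74 ± 0.10), of the B cell receptor, were among those called higher. The Cr2 values of DBA replicates 1 and 2, 5.19 and 5.23, were under their array's 40th percentile, so its size is not exact. Blnk was the marker called lower (-0.31 ± 0.08). Ms4a1, the CD20 gene (0.03 ± 0.09), and Bcl6, the germinal centre regulator (-0.06 ± 0.06), were not called. Of 5 erythroid markers 1 was called, with sums of 31.44 to 32.92 against 30.29 to 30.66. It was Hba-a2, at 6.45, 6.34 and 6.17 in the AKR cross against 4.77, 5.14 and 5.21 in the DBA cross (1.28 ± 0.14). The 3 DBA values were under their array's 40th percentile, so Hba-a2 passed the filter through the AKR arrays alone. Of the 5, 4 had positive differences and Alas2 a negative one (-0.22 ± 0.30). The 10 myeloid markers had lower sums in the AKR cross (87.87 to 89.83 against 90.72 to 91.47) but went both ways. Lyz2 (0.27 ± 0.06) and Lyz1 (0.20 ± 0.05), the lysozyme genes, were called higher there, and S100a8 (-0.96 ± 0.19), S100a9 (-0.97 ± 0.22) and Mpo (-0.33 ± 0.10), genes of neutrophils and their precursors, lower. Of 12 epithelial and stromal markers none was called higher and 3 lower, Epcam, Krt14 and Pdgfra, with sums of 105.6 to 106.8 against 107.5 to 109.7. The epithelial gene Foxn1, kept in the thymus identity list, went the other way and was called higher in the AKR cross (0.67 ± 0.12). Of the 12 genes of that list, 2 were called higher, Foxn1 and Cd3e (0.30 ± 0.04), and 0 lower. A log2 value has no true zero, so no marker is at 0, and the part of these cell types in the mitosis values was not tested.

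**Figure D4:**
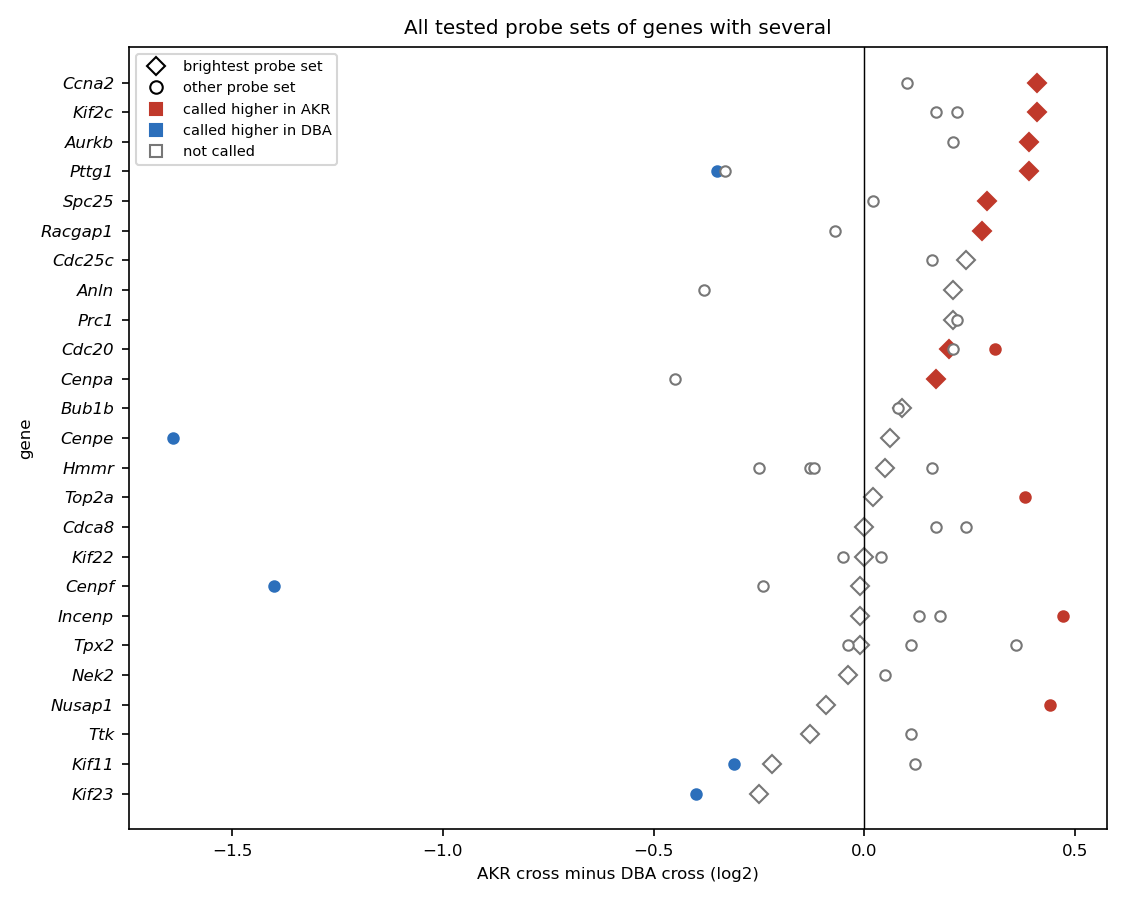
AKR minus DBA log2 difference of every tested probe set of the 25 genes that have several, with the brightest as diamonds and calls over all probe sets in colour. Pttg1 has calls on both sides of 0, and the Cenpe and Cenpf probe sets at the far left are the largest differences shown.

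The probe sets of a gene often disagreed in sign. Of 25 members with several tested probe sets, 11 had the same sign on all of them, and Pttg1 was the 1 gene called both ways. Among the 39 other probe sets, 4 were called higher in the AKR cross and 5 lower, where 12.2% and 15.0% of all tested probe sets were. These counts include the dim probe sets of Nusap1 and Cenpf, which passed the filter through 1 cross alone. Of the 12 called genes, 4 had 1 tested probe set (Plk1, Espl1, Birc5 and Cdk1), 5 had positive differences on all of theirs, and 3 had a probe set of the other sign (Pttg1, Cenpa and Racgap1). Of the 12, 8 were represented by a probe set with an _x_at, _s_at or _a_at suffix, which can match several transcripts. Without such probe sets 33 members could be tested, and 6 were called higher in the AKR cross, where 11.9% of all genes were. The 6 were Plk1, Ccna2, Espl1, Cdk1, Cdc20 and Top2a, while Kif11 was called higher in the DBA cross.

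Further mitosis genes, from a list that excludes the members, went both ways. Of 86 tested, 17 were higher in the AKR cross, 7 lower and 62 did not pass, with a median of 0.09. The shares of all genes tested were 12.5% higher and 11.5% lower, with a median of 0.03. Mad1l1, which recruits MAD2 to kinetochores, was 1.71-fold higher in the AKR cross (0.78 ± 0.10, adjusted p = 0.00147, limma). Ube2s (0.36 ± 0.05), the chain-extending enzyme of the anaphase-promoting complex, Cenpm (0.55 ± 0.08), a centromere protein, and Anapc11 (0.40 ± 0.07), the catalytic subunit of that complex, were the next by adjusted p. Smc4, a condensin subunit named here after its value was seen, read 12.18, 11.82 and 12.21 in the AKR cross against 12.54, 12.50 and 12.66 in the DBA cross. It was 1.41-fold higher in the DBA cross (-0.50 ± 0.10, adjusted p = 0.00714, limma), and its 2 other probe sets were called the same way. The other 6 called in that direction, also named after their values were seen, were Smc3 of cohesin, Cdc23 and Cdc27 of the anaphase-promoting complex, Knl1 and Mis18a of the kinetochore and centromere, and Cdca2, from -0.35 to -0.20. Cdc23 and Cdca2 also had a probe set called in the other direction, and without them 5 genes were called lower. The 24 calls became 11 when AKR replicate 2 was left out, 15 when DBA replicate 2 was and 13 when DBA replicate 3 was. In the same order the share of all genes called, 24.0%, became 15.5%, 14.2% and 15.1%.

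DNA replication genes had 17 of 45 members higher in the AKR cross and none higher in the DBA cross, with a median of 0.19. The shares of all genes tested were 12.5% and 11.5%, with a median of 0.03. At an unadjusted p under 0.05 limma gave 23 and 3, where 20.5% and 17.3% of all genes passed. Pold2, a subunit of DNA polymerase delta, was 1.42-fold higher (0.51 ± 0.08), Tk1, thymidine kinase, 1.38-fold (0.47 ± 0.07), and Pcna, the sliding clamp, 1.17-fold (0.23 ± 0.04). Rrm2, a subunit of ribonucleotide reductase, was called in the same direction on all 3 of its probe sets (0.29, 0.52 and 0.21). No test of the difference between the mitosis and the replication genes was run, and these genes too were highest on AKR replicate 2, with a mean of 9.70 against 9.55 and 9.63 on the other AKR arrays and 9.44 to 9.48 on the DBA arrays. The count of called replication genes was 7 without AKR replicate 2 and 9 without AKR replicate 3. It was 8 without DBA replicate 2 and 11 without DBA replicate 3. In the same order the share of all genes called, 24.0%, became 15.5%, 17.1%, 14.2% and 15.1%.

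**Figure D5:**
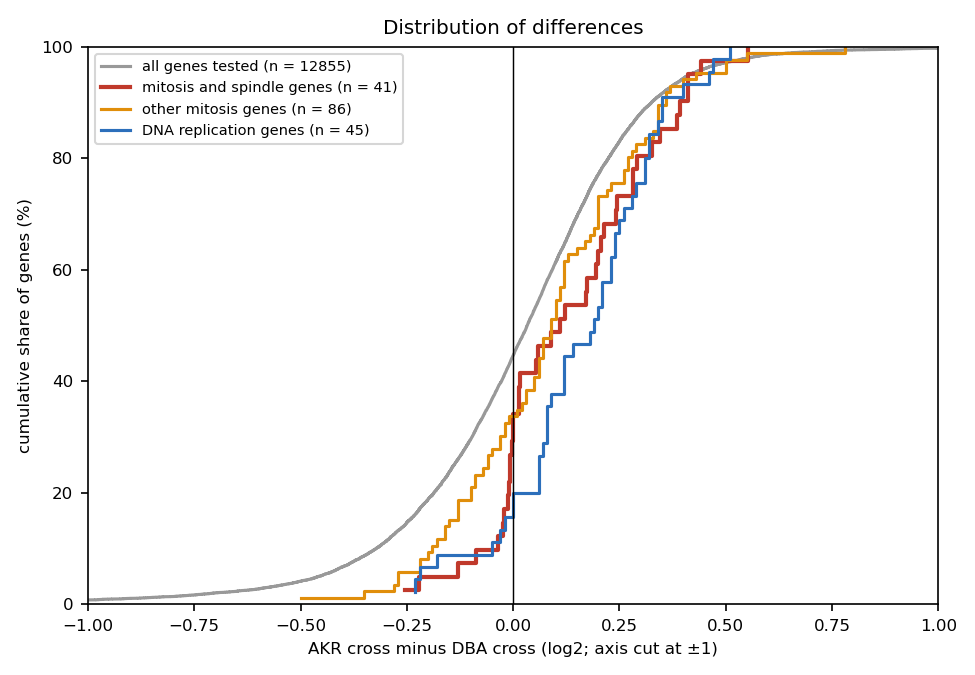
Cumulative share of genes by AKR minus DBA log2 difference for all genes tested, the 41 mitosis and spindle genes, 86 other mitosis genes and 45 DNA replication genes. The member curve lies to the right of the curve of all genes over most of its course, with medians of 0.11 and 0.03, and has no long tail below 0.

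Regulators of mitotic gene transcription were called in both directions. Of 18 such genes, 6 were called higher in the AKR cross on their brightest probe set and 2 lower. The counts were 5 and 2 without E2f5, whose probe sets were called both ways. Over all genes 12.5% were called higher in the AKR cross and 11.5% lower. Whether these calls bear on the mitosis genes was not tested. Mybl2, which encodes the B-MYB activator, read 7.58, 7.85 and 7.73 in the AKR cross against 7.23, 7.08 and 6.96 in the DBA cross. It was 1.55-fold higher in the AKR cross (0.63 ± 0.11, adjusted p = 0.00409, limma), and its other probe set was called in the same direction (0.34 ± 0.09). Foxm1, the activator of late cell cycle genes, named after its value was seen, read 8.29, 8.48 and 8.41 against 8.02, 7.98 and 7.93 (0.41 ± 0.08), with calls in this direction on all 3 of its probe sets. Rbl2, which encodes the repressor p130, read 9.77, 9.48 and 9.78 against 10.19, 10.11 and 10.18, and was 1.40-fold higher in the DBA cross (-0.48 ± 0.09, adjusted p = 0.00568, limma), with its other probe set called alike (-0.38 ± 0.09). E2f4, a partner of p130, was 1.47-fold higher in the AKR cross on its 1 tested probe set (0.56 ± 0.07). E2f5 gave opposite answers, at 1.07 ± 0.20 on its brightest probe set and -0.32 ± 0.10 on another, both called, and no direction is given for it. The other called regulators were Tfdp1 (0.25 ± 0.06) and Nfya (0.37 ± 0.09), higher in the AKR cross, and Tfdp2 (-0.35 ± 0.07), higher in the DBA cross. Nfya encodes a subunit of NF-Y, and the genes of its other subunits, Nfyb (-0.17 ± 0.10) and Nfyc (0.20 ± 0.07), were not called.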

How the data were processed

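Thymus RNA was measured on 6 Affymetrix arrays, grouped by sample title into 3 per cross. The deposited table holds log2 values of 45101 probe sets, made by the authors. Per the submitters' processing notes MAS5 and RMA were used, with no version or role for either in the sources read. The 64 control probe sets were left out. The 27385 probe sets above the 40th percentile of their array on at least 3 arrays were fitted together by limma 3.58.1 (R 4.3.3) with lmFit, then eBayes with a mean-variance trend, and tests were two-sided. The brightest probe set with exactly 1 symbol in the platform annotation stood for each of 12855 genes, with Benjamini-Hochberg adjustment over genes and a threshold of 0.05. Values given for further probe sets were adjusted over all probe sets. The 41 measured members were matched to RefSeq genes by Entrez identifier. The number of arrays limits the precision. The fit was tested on simulated data. Figures used matplotlib 3.10.9 under Python 3.11.15.

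The members and lists were chosen with earlier results of these data known, so no list was tested as a set. Every member is named. Array values are given for called members, for Mki67 and Top2a, for members with a called dimmer probe set, and for a few others after their values were seen. Of the other cell cycle lists, up to 4 called genes with the smallest adjusted p are named, and a few others after their values were seen. Marker genes of cell types were chosen for naming with their values in view. As alternatives, the following were run: other filters, normalizations, variance models, weights per array, a block for replicate number, other ways to represent a gene, and each array left out. The fit over all probe sets was preferred to a fit over 1 probe set per gene with the results of both known, and the latter is an alternative added after seeing the data.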

Additional observations from a re-analysis of the deposited data

How the results depend on the processing

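The median log2 difference of the mitosis and spindle genes stayed positive in all 22 alternatives, from 0.07 to 0.17 with 1 array left out and from 0.09 to 0.15 otherwise, against 0.11. The count higher in the AKR cross, 12, became 3 without sharing of variance between genes and 6 without _x_at, _s_at and _a_at probe sets. It became 7 with the second brightest probe set and 6 to 10 with 1 array left out. In the same order the share of all genes called higher in the AKR cross, 12.5%, became 5.65%, 11.9%, 11.9% and 7.10% to 11.2%. The count higher in the DBA cross, 0, became 1 with array weights and 3 when probe sets of a gene were averaged. Without _x_at, _s_at and _a_at probe sets it became 1. It became 3 with the second brightest probe set and 0 to 2 with 1 array left out. In the same order the share of all genes called in either direction was 24.8%, 27.6%, 23.2%, 23.0% and 14.2% to 19.5%. Quantile normalization gave 14 and 0, with 62.0% of all called genes higher in the AKR cross against 52.0%. It called 17.0% of all genes higher in the AKR cross. A fit over 1 probe set per gene, added after seeing the data, gave 13 and 0, with Aurka as the further call. It called 13.8% of all genes higher in the AKR cross.

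With the replicate number as a replicate block, 17 members were called higher in the AKR cross and 2 lower. Over all genes 32.6% were then called, and 16.9% were called higher in the AKR cross. Arrays of the same number deviated with correlations of 0.37, 0.00 and 0.38, and arrays of unlike number with -0.41 to 0.15. The main fit did not take the numbers as pairs, and whether they mark a shared step was not tested.

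With the mean of its probe sets Cenpa stood at -0.14, Cenpe at -0.79 and Pttg1 at -0.09. Without _x_at, _s_at and _a_at probe sets Cenpa stood at -0.45 and Pttg1 at -0.33. The second brightest probe sets gave -0.45 for Cenpa, -1.64 for Cenpe, 0.44 for Nusap1, -0.35 for Pttg1 and -0.07 for Racgap1.

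Among the other lists, 24 called mitosis genes became 13 without sharing of variance and 11 to 19 with 1 array left out. The 17 replication genes became 9 without a variance trend, 8 without sharing of variance and 7 to 17 with 1 array left out. Without sharing of variance, 6 G1 regulators became 2, 2 CDK inhibitors became 1 and 8 transcription regulators became 5. The share of all genes called, 24.0%, became 10.6% without sharing of variance and 21.0% without a variance trend. It was 14.2% to 19.5% with 1 array left out. The cause of these changes was not tested.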

Other observations

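Some genes that act before mitosis, at the passage from G1 to S phase, were also called in the AKR direction. Of 15 such regulators, 6 were higher in the AKR cross and none in the DBA cross by limma, with 8 and 1 at an unadjusted p under 0.05. The shares of all genes tested were 12.5% and 11.5%, and 20.5% and 17.3% unadjusted. Differences were negative for 5 of the 15. Without Ccnd3, whose probe sets were called both ways, 5 were higher. Cdk4, the kinase of D-type cyclins, exceeded the DBA level 1.33-fold (0.42 ± 0.06) and was called on all 3 of its probe sets. Ccne1, cyclin E1, read 8.57, 8.77 and 8.37 in the AKR cross and 8.12, 7.74 and 7.92 in the DBA cross, and was 1.56-fold higher in the AKR cross (0.64 ± 0.13). Its other probe set was called alike (0.47 ± 0.11). E2f2, an activating E2F gene, was higher on its brightest probe set (0.36 ± 0.06) and not on the other (-0.01 ± 0.06). Ccnd3, the D-type cyclin of thymocytes, had probe sets called both ways, at 0.43 ± 0.08, 0.60 ± 0.17 and -0.93 ± 0.16.

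Inhibitors of cyclin-dependent kinases went both ways. Cdkn1c, which encodes p57, read 7.13, 7.33 and 7.25 in the AKR cross and 7.98, 8.04 and 7.80 in the DBA cross, and was 1.63-fold higher in the DBA cross (-0.71 ± 0.10, adjusted p = 0.00168, limma). Cdkn2c, which encodes p18, was 1.25-fold higher in the AKR cross (0.33 ± 0.07, adjusted p = 0.0114, limma). The 4 other tested inhibitors did not pass, and 24.0% of all genes tested were called in either direction.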
